A study of Mus musculus with 16 samples.

Results

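The 10 genes described here make, recycle or use glutathione. They were chosen by name for that role, with earlier results of these data known, and are Slc7a11, Gclc, Gclm, Gss, Gsr, Gpx1, Gsta3, Gstm1, Gstp1 and Mgst1. All were found in a count table of 56748 genes, and all 10 passed the filter on low counts that left 13438 tested genes. The cells were mouse bone marrow-derived macrophages, cultured from the marrow of 4 male C57BL6 mice, marked WT (wild type) in the deposited counts. Each mouse gave 1 library to each of 4 groups. The groups were SR9009 followed by LPS, SR9009, LPS and DMSO, the vehicle. SR9009 is a synthetic ligand that activates REV-ERBα and REV-ERBβ, nuclear receptors that repress clock genes, and cells received 10 µM of it for 16 hours. Lipopolysaccharide (LPS), from the bacterial outer membrane and sensed through Toll-like receptor 4, was added for 6 hours at 100 ng/mL. Whether the LPS cultures also received DMSO overnight is not stated, so a difference in vehicle cannot be told apart from LPS or SR9009 in comparisons that include the LPS group. The series title places the study in the clock control of fibrinolysis by innate immune cells.

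Glutathione is a tripeptide of glutamate, cysteine and glycine and the main small thiol antioxidant of the cell. Cystine enters through the antiporter whose transporter subunit is encoded by Slc7a11, glutamate-cysteine ligase (catalytic subunit Gclc, modifier subunit Gclm) makes the rate-limiting dipeptide, and glutathione synthetase (Gss) adds glycine. Gpx1 oxidises glutathione while reducing peroxides, Gsr returns it to the reduced form, and the transferases (Gsta3, Gstm1, Gstp1 and the membrane-bound Mgst1) join it to electrophiles. Many of these genes are known targets of the transcription factor NRF2, which binds antioxidant response elements.

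Total counts ran from 12616442 to 24214863 per library, with 13298 to 18947 genes detected. The SR9009 library of mouse 1 was lowest in both, with the next library at 15819992 counts and 16419 genes, and results that change without it are given with it and without it. The 7 macrophage markers were detected in all groups, with a summed level of 5228 to 10007 CPM (counts scaled to library size). Summed markers of neutrophils, T cells, B cells, erythroid cells, mast cells and conventional dendritic cells reached at most 7.24 CPM, and those of fibroblasts at most 14.6 CPM. The 3 endothelial markers summed to 91.7 to 190 CPM with SR9009 and LPS, 3.34 to 12.3 CPM with SR9009, 102 to 196 CPM with LPS and 7.09 to 18.4 CPM with DMSO, so this list moved with LPS, and all 3 were called higher in both LPS comparisons. Of the tested neutrophil and fibroblast markers, S100a8 and Pdgfrb (1 per list) were also called higher with LPS against DMSO (19.4-fold and 5.21-fold), as were Adgre1 and Fcgr1 of the macrophage list, while Csf1r was lower. With SR9009 and LPS against LPS, 0 markers passed by edgeR, but Cdh5 (log2 -1.96) and Pecam1 (log2 -1.78) were lower in 4 of 4 mice with no overlap. So were Fcgr1 (log2 -0.99) and Itgam (log2 -0.60) of the macrophage list, while the remaining endothelial marker, Kdr (log2 -0.18), overlapped. The remaining macrophage markers overlapped as well. Mertk was higher in 4 of 4 mice (log2 1.14), and Adgre1, Cd68, Csf1r and Lyz2 had log2 values of 0.14, 0.02, -0.09 and -0.35. Of all tested genes, 7.78% lay wholly below in this comparison. With SR9009 against DMSO, Fcgr1 was lower (log2 -1.74, edgeR adjusted p = 0.0204), with no overlap. Lyz2 (log2 -0.42) also lay wholly below and Mertk (log2 0.66) wholly above, but neither passed, and the other macrophage markers overlapped. Over all tested genes, 4.64% lay wholly below and 4.9% wholly above here. The part of these markers in the results was not tested. In bulk samples, fewer cells of a type and less RNA per cell cannot be told apart.

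Levels of different genes were compared in the authors' FPKM values, which are scaled to gene length. In DMSO-treated macrophages, Gstm1 was the most abundant of the 10 at 47.4 ± 7.28 FPKM (SD, n = 4, as for all means below), followed by Mgst1 at 28.8 ± 10.7 FPKM, and these overlapped. Gclm followed at 16.0 ± 1.64 FPKM, Gpx1 at 12.1 ± 0.624 FPKM and Gsr at 10.1 ± 0.989 FPKM. Gstp1 at 8.33 ± 2.93 FPKM overlapped both Gsr and Gclc, which was at 6.81 ± 1.64 FPKM. Gss, Gsta3 and Slc7a11 were lowest at 1.71 ± 0.245, 0.789 ± 0.247 and 0.194 ± 0.0967 FPKM, and did not overlap one another. The order changed with treatment. With SR9009 and LPS together, Gstm1 (98.6 ± 5.02 FPKM) was followed by Gsr (94.6 ± 42.7 FPKM) and Gclm (67.0 ± 29.4 FPKM), Slc7a11 stood at 30.1 ± 28.2 FPKM, and every gene overlapped its neighbour in the order. With SR9009 alone, Gclm stood second at 80.9 ± 48.0 FPKM and Slc7a11 last at 1.05 ± 0.388 FPKM. With LPS alone, Gsr was first at 84.5 ± 13.8 FPKM and Gsta3 last at 0.462 ± 0.117 FPKM, neither overlapping its neighbour.

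**Figure D1:**
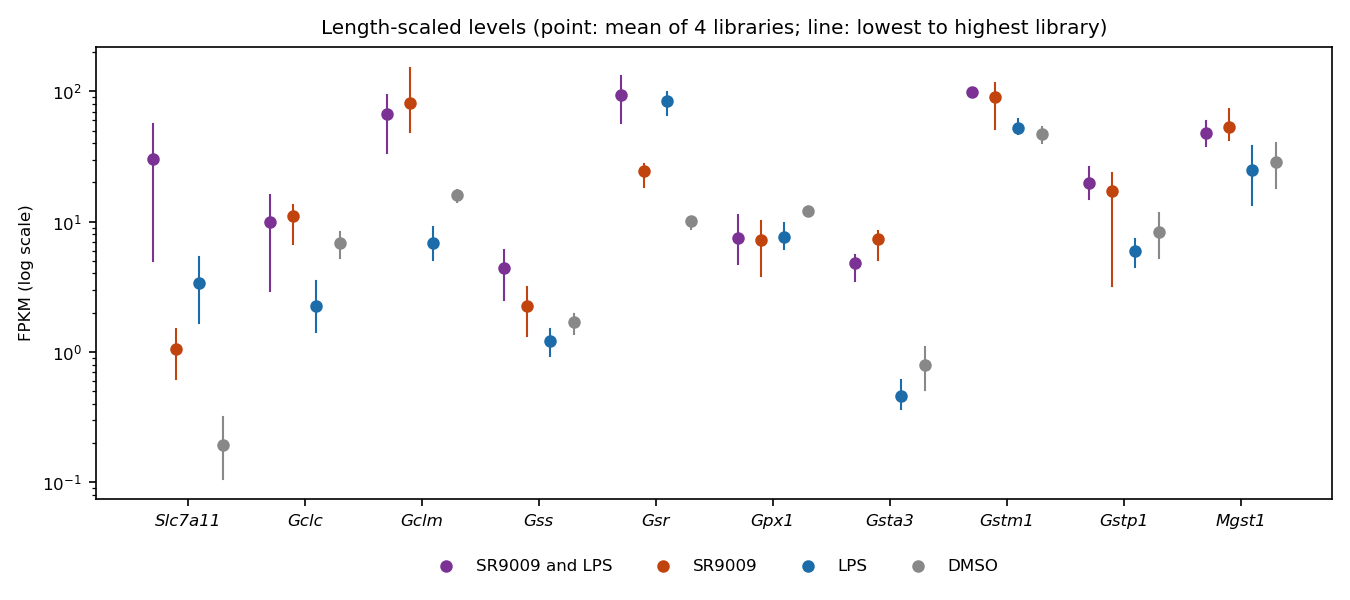
Level of each gene in FPKM (log axis) in the 4 groups; points are means of 4 libraries and lines run from the lowest to the highest library. In DMSO the means run from 0.194 FPKM (Slc7a11) to 47.4 FPKM (Gstm1), and with SR9009 and LPS from 4.43 FPKM (Gss) to 98.6 FPKM (Gstm1).

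Promoter windows are shown because many glutathione genes carry antioxidant response elements and because REV-ERB, the target of SR9009, binds its own element. RefSeq windows of 250 bases before to 50 bases after the transcript start (GRCm38.p6, a different build from the GRCm39 gene coordinates below) matched 8 of the 10 genes, with a pair of starts each for Gstm1 and Mgst1. Both strands were searched for the antioxidant response element core TGACNNNGC and for the REV-ERB and ROR element, an AGGTCA site with an A/T-rich flank, whose reverse complement also begins with TGAC. The core was found in 3 genes: in Gclm as GCACCGTCA on the reverse strand at position -134 from the start, in Gsta3 as TGACATTGC on the forward strand at -121, and at the first Mgst1 start as GCACGGTCA on the reverse strand at -56. Of all 27025 genes with a window, 14.0% held the core (12.4% of 32851 windows). The REV-ERB and ROR element in that form was found in 0 of the 8 genes and in 0.259% of all genes. A form this rare would be missing from most sets of 8 genes, so nothing follows from its absence here. A looser form, TGANNNNGC, which includes every core match and was added after the windows had been seen, matched in 5 of the 8 genes (Gsta3, Slc7a11, Gclm, Mgst1 and Gstp1) and in 12174 of the 27025 genes. A match describes letters only and is not evidence of binding. The 3 windows with the core and that of Slc7a11, which has none, follow 5′ to 3′ on the gene's strand, with the core match in capitals. They lie at chr3:122245307-122245606 (Gclm, + strand), chr1:21240335-21240634 (Gsta3, + strand), chr6:138140277-138140576 (Mgst1, + strand) and chr3:50443564-50443863 (Slc7a11, - strand).
Gclm: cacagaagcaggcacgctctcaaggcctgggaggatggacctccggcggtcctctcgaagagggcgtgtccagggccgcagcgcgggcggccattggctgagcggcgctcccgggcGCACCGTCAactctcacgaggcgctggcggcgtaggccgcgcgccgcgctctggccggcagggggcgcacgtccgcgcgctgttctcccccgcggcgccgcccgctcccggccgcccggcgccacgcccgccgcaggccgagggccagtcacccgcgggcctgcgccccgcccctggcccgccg
Gsta3: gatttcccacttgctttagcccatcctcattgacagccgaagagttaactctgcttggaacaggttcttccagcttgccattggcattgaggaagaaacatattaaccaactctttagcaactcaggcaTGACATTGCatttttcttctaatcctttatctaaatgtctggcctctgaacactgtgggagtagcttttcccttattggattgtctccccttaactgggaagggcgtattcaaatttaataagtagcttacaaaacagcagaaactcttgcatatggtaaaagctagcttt
Mgst1: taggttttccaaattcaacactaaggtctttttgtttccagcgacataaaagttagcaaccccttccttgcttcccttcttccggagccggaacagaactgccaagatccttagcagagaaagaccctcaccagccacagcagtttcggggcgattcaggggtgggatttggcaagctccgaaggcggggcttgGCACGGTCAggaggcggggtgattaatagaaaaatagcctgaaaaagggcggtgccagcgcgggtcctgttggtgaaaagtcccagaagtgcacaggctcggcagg
Slc7a11: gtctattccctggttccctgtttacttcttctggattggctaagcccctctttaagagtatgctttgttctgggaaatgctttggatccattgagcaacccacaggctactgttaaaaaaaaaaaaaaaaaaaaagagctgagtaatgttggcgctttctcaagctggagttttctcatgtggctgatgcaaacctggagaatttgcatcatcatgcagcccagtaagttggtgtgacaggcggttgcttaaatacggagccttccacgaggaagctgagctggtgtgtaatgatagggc

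Setting SR9009 against DMSO shows the effect of the agonist on these transcripts in unstimulated macrophages. Gsta3, Gclm and Gsr rose, by 9.46-fold, 5.02-fold and 2.49-fold. These 3 of 10 genes were higher and 0 lower at an edgeR adjusted p under 0.05, where 0.313% of all tested genes were higher and 0.566% lower (0.878% in either direction). Without adjustment, p was under 0.05 for 7 higher and 1 lower gene of the 10, against 7.96% and 3.72% of tested genes. DESeq2 called 5 higher and 0 lower, against 0.939% and 1.53%. The median log2 fold change of the 10 was 1.03, against 0.01 over all tested genes.

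Among the synthesis genes, Gclm (ENSMUSG00000028124, chromosome 3, 122039206 to 122064381, + strand) had 933, 331, 412 and 410 CPM in the SR9009 libraries of mice 1 to 4, against 113, 113, 98.4 and 90.9 CPM in the DMSO libraries. The groups did not overlap, and mouse 1 was far above the other SR9009 libraries. The log2 fold change was 2.33 (SE 0.37, edgeR adjusted p = 0.00734), and 1.84 (edgeR adjusted p = 0.00528) without the SR9009 library of mouse 1. Slc7a11 (ENSMUSG00000027737, chromosome 3, 49846975 to 50398063, - strand) had 8.36, 12.7, 18.6 and 22.0 CPM with SR9009, against 3.23, 4.54, 1.84 and 1.51 CPM with DMSO. The groups did not overlap, but the log2 fold change of 2.48 (SE 0.74) did not pass (edgeR adjusted p = 0.189, and 0.0146 with DESeq2). Gclc (ENSMUSG00000032350, chromosome 9, 77661817 to 77701767, + strand) had 42.2, 27.2, 50.8 and 53.6 CPM with SR9009, against 20.6, 21.3, 31.4 and 32.2 CPM with DMSO (log2 0.72, SE 0.47, edgeR adjusted p = 0.565). It was higher with SR9009 in 4 of 4 mice although the groups overlapped. Gss (ENSMUSG00000027610, chromosome 2, 155405101 to 155434730, - strand) had 7.59, 19.8, 13.8 and 14.9 CPM with SR9009, against 11.9, 10.5, 8.36 and 10.8 CPM with DMSO (log2 0.43, SE 0.31, edgeR adjusted p = 0.62). It was higher in 3 of 4 mice and lower in mouse 1. Gss overlaps the oppositely oriented Acss2, which held 10264 counts over the 16 libraries against 4764 for Gss. With strandedness not given, reads of the shared stretch cannot be told apart.

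Gsr, encoding glutathione reductase (ENSMUSG00000031584, chromosome 8, 34142551 to 34188191, + strand), had 49.4, 74.4, 81.9 and 78.1 CPM with SR9009, against 30.4, 30.9, 24.8 and 28.0 CPM with DMSO. All SR9009 libraries lay above all DMSO libraries (log2 1.31, SE 0.29, edgeR adjusted p = 0.0441). Gpx1 (ENSMUSG00000063856, chromosome 9, 108216102 to 108217542, + strand) was the gene of the 10 with a negative value. It had 5.37, 15.5, 12.9 and 10.5 CPM with SR9009, against 17.4, 17.1, 18.1 and 19.0 CPM with DMSO. These groups did not overlap either, but the log2 fold change of -0.69 (SE 0.30) did not pass (edgeR adjusted p = 0.411).

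Among the transferases, Gsta3 (ENSMUSG00000025934, chromosome 1, 21310813 to 21335885, + strand) had 35.0, 23.6, 35.6 and 39.3 CPM with SR9009, against 4.91, 3.81, 2.27 and 3.12 CPM with DMSO. The lowest SR9009 library was well above the highest DMSO library, and the log2 fold change was 3.24 (SE 0.28, edgeR adjusted p = 5.77e-05). Its close relatives Gsta4, Gsta1 and Gsta2 held 108, 1 and 0 counts over the 16 libraries, against 5116 for Gsta3. Gstm1 (ENSMUSG00000058135, chromosome 3, 107919571 to 107925289, - strand) had 73.9, 142, 186 and 159 CPM with SR9009, against 82.0, 81.2, 64.3 and 60.2 CPM with DMSO. Mice 2 to 4 were higher with SR9009 and mouse 1 was not (log2 0.96, SE 0.23, edgeR adjusted p = 0.0734). Gstp1 (ENSMUSG00000060803, chromosome 19, 4085407 to 4087985, - strand) had 4.81, 39.1, 37.3 and 31.8 CPM with SR9009, against 15.8, 18.5, 8.39 and 10.4 CPM with DMSO. Mouse 1 again went the other way (log2 1.09, SE 0.46, edgeR adjusted p = 0.385). Without the SR9009 library of mouse 1, Gstm1 (log2 1.13, edgeR adjusted p = 0.00217) and Gstp1 (log2 1.40, edgeR adjusted p = 0.0133) both passed. Mgst1 (ENSMUSG00000008540, chromosome 6, 138117314 to 138133753, + strand) had 144, 105, 106 and 90.8 CPM with SR9009, against 84.5, 72.6, 44.5 and 37.3 CPM with DMSO. The groups did not overlap, and its log2 fold change of 0.90 (SE 0.35, edgeR adjusted p = 0.341) passed with mouse number in the model (0.97, edgeR adjusted p = 0.0333). Related sequences can share reads: Gstm4, Gstm5 and Gstm2 held 3658, 2671 and 712 counts, against 36155 for Gstm1, and Gstp2 and Gstp3 held 19 and 4, against 7031 for Gstp1.

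In all, 5 of the 10 genes had every SR9009 library above every DMSO library, where 4.9% of tested genes did, and 1 had every SR9009 library below, where 4.64% did. Leaving out 1 mouse at a time, Gsta3 passed each time. Gclm did not pass without mouse 3 (edgeR adjusted p = 0.0775) or mouse 4 (edgeR adjusted p = 0.134), nor Gsr without mouse 2, 3 or 4 (edgeR adjusted p = 0.275, 0.406 and 0.459). In a fit of the SR9009 and DMSO libraries alone, Gclm (edgeR adjusted p = 0.0906) and Gsr (edgeR adjusted p = 0.108) did not pass, and Gsr also missed with no filter (edgeR adjusted p = 0.0563), limma-voom (adjusted p = 0.0578) and limma on log2 FPKM plus 1.

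**Figure D2:**
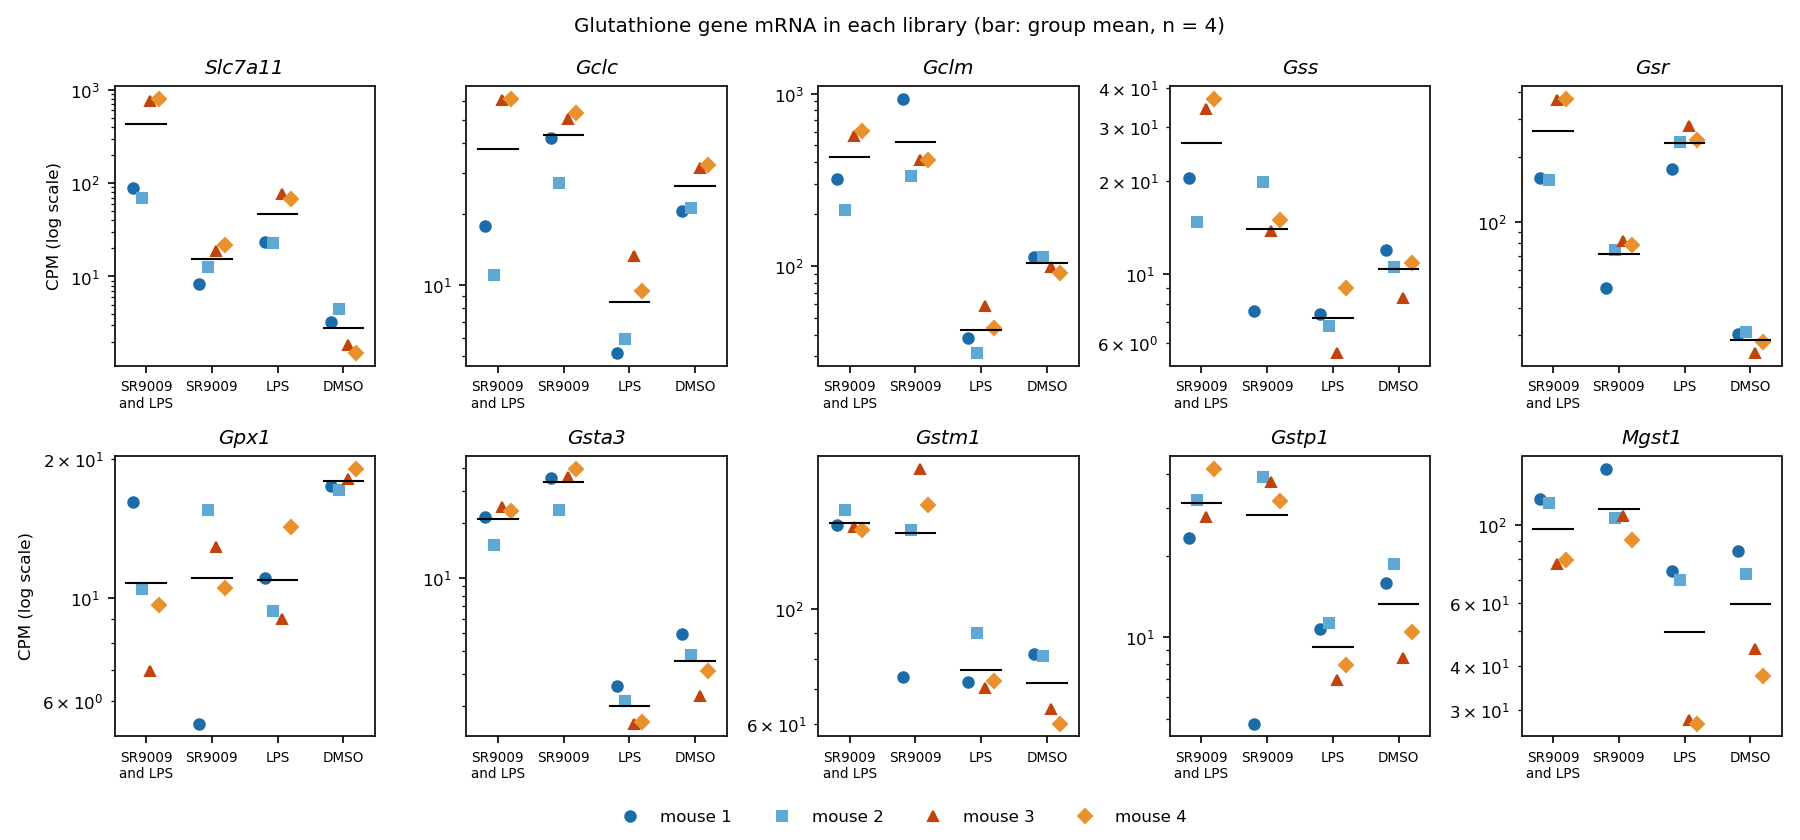
CPM (log axes) of each of the 10 genes in every library, by group from left to right: SR9009 and LPS, SR9009, LPS and DMSO; points are mice 1 to 4 and bars are group means. Gsta3 lies between 15.2 and 39.3 CPM in all libraries with SR9009 and between 1.60 and 4.91 CPM in all libraries without it, while Gclm in SR9009 mouse 1 stands at 933 CPM.

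Setting SR9009 and LPS against LPS gives the SR9009 difference in stimulated macrophages. It uses other libraries of the same mice, fitted together with those above. All 4 synthesis and uptake genes rose, as did Gsta3. These 5 of 10 genes were higher and 0 lower at an edgeR adjusted p under 0.05, where 1.06% of all tested genes were higher and 0.737% lower (1.79% in either direction). Without adjustment, p was under 0.05 for 8 higher and 0 lower genes, against 7.79% and 5.74% of tested genes. DESeq2 called 7 higher and 0 lower, against 2.73% and 2.57%. The median log2 fold change of the 10 was 1.82, against 0.02 over all tested genes.

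Gclm had 321, 211, 570 and 608 CPM with SR9009 and LPS, against 38.1, 31.2, 58.2 and 43.5 CPM with LPS. The groups did not overlap (log2 3.32, SE 0.39, edgeR adjusted p = 0.00056). Slc7a11 had 88.2, 69.3, 749 and 801 CPM with SR9009 and LPS, against 23.2, 22.9, 75.6 and 67.1 CPM with LPS. Mice 3 and 4 were about an order of magnitude above mice 1 and 2 with both agents, and the groups overlapped although every mouse was higher with SR9009 and LPS (log2 3.18, SE 0.74, edgeR adjusted p = 0.0402). Gclc had 17.8, 11.0, 60.7 and 61.6 CPM with SR9009 and LPS, against 5.16, 5.94, 13.3 and 9.42 CPM with LPS (log2 2.15, SE 0.49, edgeR adjusted p = 0.0363). Its groups overlapped too, since mouse 2 with both agents lay below mouse 3 with LPS. Gss had 20.4, 14.8, 34.2 and 36.9 CPM with SR9009 and LPS, against 7.40, 6.78, 5.55 and 8.99 CPM with LPS (log2 1.89, SE 0.33, edgeR adjusted p = 0.00791). Its groups did not overlap. For these 4 genes, mice 3 and 4 were the highest with both agents.

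Neither recycling gene passed. Gsr had 160, 156, 368 and 373 CPM with SR9009 and LPS, against 177, 235, 278 and 240 CPM with LPS (log2 0.19, SE 0.28, edgeR adjusted p = 0.861). Mice 1 and 2 were lower and mice 3 and 4 higher than with LPS alone. Gpx1 had 16.1, 10.5, 6.95 and 9.66 CPM with SR9009 and LPS, against 11.1, 9.37, 9.00 and 14.3 CPM with LPS (log2 -0.02, SE 0.31, edgeR adjusted p = 0.991).

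Gsta3 had 21.4, 15.2, 24.6 and 23.2 CPM with SR9009 and LPS, against 2.58, 2.13, 1.60 and 1.64 CPM with LPS. The groups did not overlap, and the change was 10.6-fold (log2 3.41, SE 0.29, edgeR adjusted p = 2.29e-05). Gstm1 had 145, 155, 144 and 142 CPM with SR9009 and LPS, against 72.2, 89.9, 70.3 and 72.6 CPM with LPS. Its groups did not overlap, and the log2 fold change of 0.94 (SE 0.23) lay at the threshold (edgeR adjusted p = 0.0501, and 0.0418 with mouse number in the model). Gstp1 had 23.2, 32.2, 27.6 and 41.6 CPM with SR9009 and LPS, against 10.7, 11.3, 6.96 and 7.92 CPM with LPS, again without overlap (log2 1.76, SE 0.47, edgeR adjusted p = 0.0739). Mgst1 had 118, 115, 77.7 and 79.8 CPM with SR9009 and LPS, against 73.9, 69.8, 28.2 and 27.5 CPM with LPS. Its groups did not overlap, and each mouse was higher with both agents (log2 0.97, SE 0.35, edgeR adjusted p = 0.199, and 1.08 with edgeR adjusted p = 0.0139 with mouse number in the model).

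In this comparison, 6 of the 10 genes had every SR9009 and LPS library above every LPS library, where 6.66% of tested genes did, and 0 had every one below, where 7.78% did. The fit shared 1 estimate of spread, and without the SR9009 library of mouse 1 in it Gstm1 (log2 0.98, edgeR adjusted p = 0.000437) and Gstp1 (log2 1.79, edgeR adjusted p = 0.000801) passed. Leaving out 1 mouse at a time, Gsta3 passed each time and Gclm missed without mouse 4 (edgeR adjusted p = 0.0503). Without mouse 2, 3 or 4, the edgeR adjusted p was 0.141, 0.279 and 0.334 for Slc7a11, 0.104, 0.236 and 0.368 for Gclc, and 0.0515, 0.21 and 0.194 for Gss. Slc7a11 and Gclc also missed in a fit of these 2 groups alone (edgeR adjusted p = 0.0851 and 0.0783), where Gstm1 and Gstp1 passed instead, with limma-voom (adjusted p = 0.1 and 0.115) and with limma on log2 FPKM; Slc7a11 missed with no filter (edgeR adjusted p = 0.0678).

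**Figure D3:**
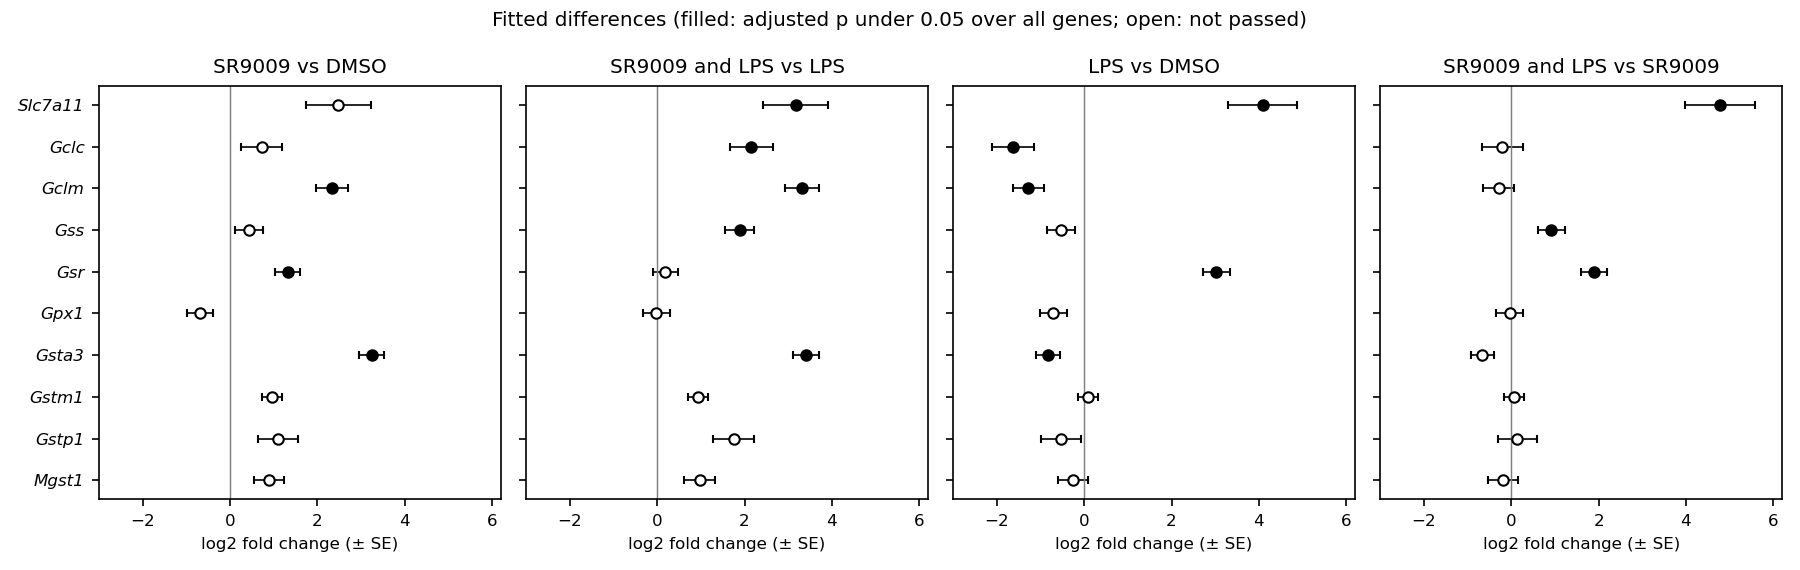
Fitted log2 fold change of the 10 genes in 4 comparisons, with bars of 1 SE; filled points passed at an edgeR adjusted p under 0.05. Gsta3 and Gclm are filled in both SR9009 comparisons, at 3.24 and 2.33 for SR9009 against DMSO and at 3.41 and 3.32 for SR9009 and LPS against LPS.

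Whether SR9009 acted differently with LPS than without was tested as the interaction, in which the effect without LPS is subtracted from that with LPS. None of the 10 genes passed (0 higher and 0 lower by edgeR, DESeq2 and limma-voom), where 0% of tested genes were higher and 0.00744% lower by edgeR, 0.391% and 0.346% by DESeq2, and 0% either way by limma-voom. Without adjustment, edgeR's p was under 0.05 for 2 positive and 1 negative difference of the 10, against 3.5% and 3.63% of tested genes. The difference was 1.45 for Gss (log2, SE 0.45, edgeR adjusted p = 0.414), 1.43 for Gclc (SE 0.67, edgeR adjusted p = 0.688) and -1.13 for Gsr (SE 0.40, edgeR adjusted p = 0.526). For Gsta3 it was 0.17 (SE 0.38, edgeR adjusted p = 0.974), for Gclm 0.99 (SE 0.50, edgeR adjusted p = 0.719) and for Slc7a11 0.70 (SE 0.99, edgeR adjusted p = 0.941). That no difference passed does not show that the SR9009 effects were equal.

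Setting LPS against DMSO shows how stimulation alone moved these genes, with the same DMSO libraries as in the SR9009 comparison. Slc7a11 and Gsr rose, while both glutamate-cysteine ligase genes and Gsta3 fell. Of all tested genes, 19.4% were higher and 20.4% lower (39.8% in either direction). The 2 higher and 3 lower genes of 10 are near these shares, so the counts do not set the 10 genes apart. Slc7a11 averaged 47.2 ± 28.1 CPM with LPS and 2.78 ± 1.39 CPM with DMSO, a 17.0-fold rise (log2 4.09, SE 0.79, edgeR adjusted p = 0.000647). Its LPS libraries of mice 3 and 4 were about 3 times those of mice 1 and 2, and all lay above all DMSO libraries. Gsr averaged 232 ± 41.6 CPM with LPS and 28.5 ± 2.82 CPM with DMSO, an 8.14-fold rise with no overlap (log2 3.03, SE 0.31, edgeR adjusted p = 1.96e-06).

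Gclc averaged 8.46 ± 3.73 CPM with LPS and 26.4 ± 6.25 CPM with DMSO and fell by 1.64 on the log2 scale (SE 0.48, edgeR adjusted p = 0.013). Gclm averaged 42.8 ± 11.5 CPM with LPS and 104 ± 11.1 CPM with DMSO and fell by 1.28 (log2, SE 0.36, edgeR adjusted p = 0.00991). For both genes all LPS libraries lay below all DMSO libraries. Gsta3 averaged 1.99 ± 0.462 CPM with LPS and 3.53 ± 1.12 CPM with DMSO and fell by 0.83 (log2, SE 0.28, edgeR adjusted p = 0.0259), with the groups overlapping. Its LPS values rest on 23 to 31 counts per library. Gpx1 averaged 10.9 ± 2.40 CPM with LPS and 17.9 ± 0.832 CPM with DMSO, without overlap (log2 -0.71, SE 0.31, edgeR adjusted p = 0.0765, and -0.73 with edgeR adjusted p = 0.0145 without the SR9009 library of mouse 1 in the fit). Gss, Gstm1, Gstp1 and Mgst1 did not pass, with log2 values from -0.54 to 0.08. In this comparison 2 genes lay wholly above and 3 wholly below DMSO, where 27% and 30.5% of tested genes did, so these counts are near the background too. Without mouse 4, Gclc did not pass (edgeR adjusted p = 0.0704), nor Gsta3 without mouse 2, 3 or 4 (edgeR adjusted p = 0.0821, 0.0637 and 0.127), with no filter (edgeR adjusted p = 0.0535), with limma-voom (adjusted p = 0.101) or with limma on log2 FPKM.

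Setting SR9009 and LPS against SR9009 shows how LPS moved the genes in macrophages already given the agonist, with libraries shared with both SR9009 comparisons. Slc7a11, Gsr and Gss rose. These 3 of 10 genes were higher and 0 lower, where 14.5% of all tested genes were higher and 15.8% lower (30.3% in either direction). The count in either direction is thus near the background. Slc7a11 averaged 427 ± 403 CPM with SR9009 and LPS and 15.4 ± 6.07 CPM with SR9009, a 27.6-fold rise (log2 4.79, SE 0.80, edgeR adjusted p = 0.000299). Gsr averaged 264 ± 123 CPM with SR9009 and LPS and 71.0 ± 14.7 CPM with SR9009 (log2 1.90, SE 0.29, edgeR adjusted p = 0.000152). For both genes the groups did not overlap, as for 13.9% of tested genes in that direction and 13.4% in the other; 0 of the 10 lay wholly below. Gss averaged 26.6 ± 10.7 CPM with SR9009 and LPS and 14.0 ± 5.02 CPM with SR9009, with overlap and with mouse 2 going the other way (log2 0.92, SE 0.31, edgeR adjusted p = 0.037). Gss did not pass without mouse 3 (edgeR adjusted p = 0.209) or mouse 4 (edgeR adjusted p = 0.216), in a fit of these 2 groups alone (edgeR adjusted p = 0.158), with no filter (edgeR adjusted p = 0.0621) or with upper-quartile scaling (edgeR adjusted p = 0.0606).

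The other 7 genes did not pass. Gclm averaged 427 ± 192 CPM with SR9009 and LPS and 522 ± 277 CPM with SR9009 (log2 -0.29, edgeR adjusted p = 0.587, and 0.21 with edgeR adjusted p = 0.59 without the SR9009 library of mouse 1). Gclc averaged 37.8 ± 27.1 CPM with both agents and 43.4 ± 11.9 CPM with SR9009 (log2 -0.20, edgeR adjusted p = 0.79). For both ligase genes, mice 1 and 2 were lower and mice 3 and 4 higher with both agents than with SR9009. Gsta3 averaged 21.1 ± 4.14 CPM with both agents and 33.4 ± 6.78 CPM with SR9009, lower in 4 of 4 mice (log2 -0.66, SE 0.26, edgeR adjusted p = 0.0651). The other 4 log2 values lay between -0.19 and 0.14.

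Values within each mouse showed how far the 4 animals moved together. With SR9009 against DMSO, the log2 ratio of Gsta3 was 2.83, 2.63, 3.97 and 3.65 in mice 1 to 4, and with SR9009 and LPS against LPS it was 3.06, 2.83, 3.94 and 3.82. For Gclm it was 3.04, 1.55, 2.07 and 2.18 without LPS, and 3.07, 2.76, 3.29 and 3.81 with LPS. Both genes were thus higher with SR9009 in 4 of 4 mice under both conditions. For Slc7a11 the ratio was 1.37, 1.49, 3.34 and 3.86 without LPS and 1.93, 1.60, 3.31 and 3.58 with LPS, so that mice 3 and 4 moved further than mice 1 and 2 in both. Its LPS response without SR9009 had the same split, with log2 ratios of 2.84, 2.33, 5.36 and 5.47. No label sets mice 1 and 2 apart from mice 3 and 4.

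**Figure D4:**
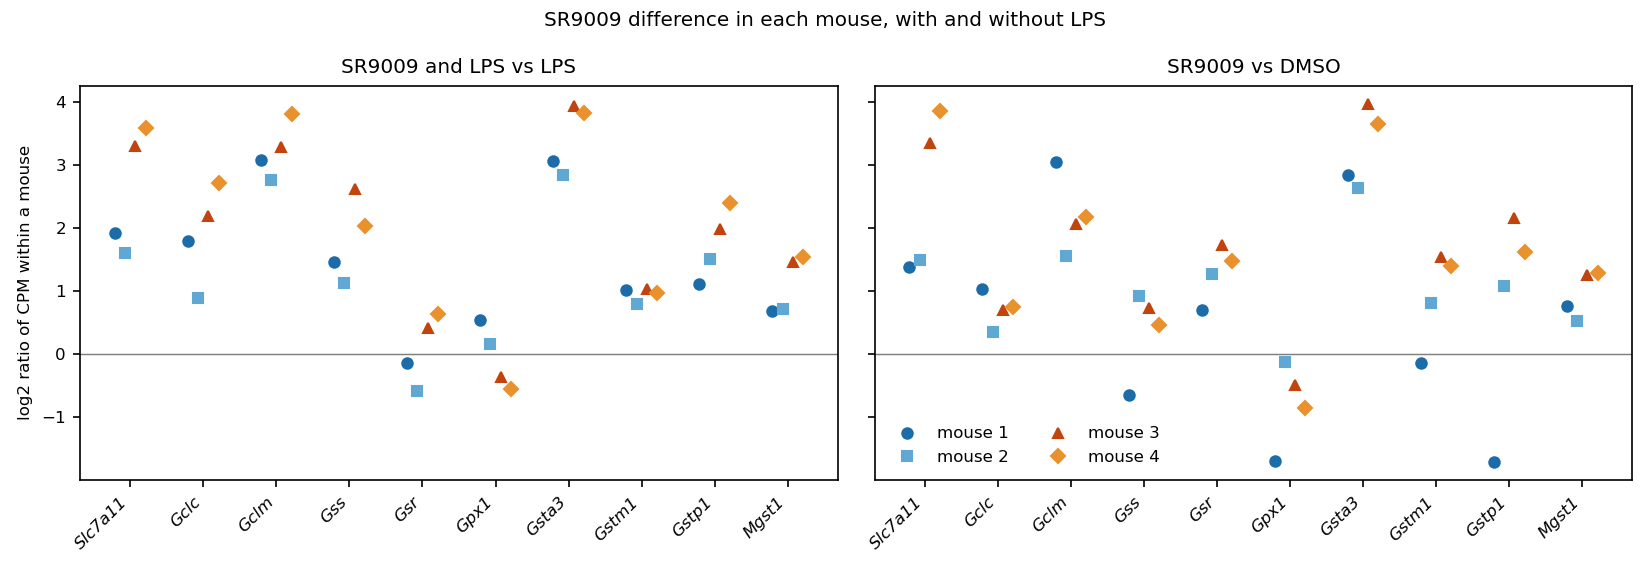
Log2 ratio of CPM within each mouse for the 10 genes, for SR9009 and LPS against LPS and for SR9009 against DMSO; each point is 1 mouse and the line at 0 marks no difference. The 8 ratios of Gsta3 lie between 2.63 and 3.97, and those of Gstp1 without LPS run from -1.72 in mouse 1 to 2.15 in mouse 3.

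A further 61 glutathione genes were listed: other transferases, glutathione-dependent enzymes, turnover and cysteine genes, NADPH supply and regulators. Of these, 46 were tested. With SR9009 against DMSO, 2 were higher and 0 lower, where 0.313% and 0.566% of all tested genes were, with a median log2 fold change of 0.26. Esd, which hydrolyses S-formylglutathione, had 376, 338, 460 and 449 CPM with SR9009, against 185, 169, 144 and 155 CPM with DMSO (log2 1.31, SE 0.19, edgeR adjusted p = 0.00517). Prdx6, a peroxiredoxin that uses glutathione, had 113, 155, 136 and 152 CPM with SR9009, against 79.9, 73.2, 61.8 and 63.3 CPM with DMSO (log2 1.00, SE 0.19, edgeR adjusted p = 0.0191). Neither gene's groups overlapped, but both were named because they passed in this same comparison. Of the 46, 7 lay wholly above DMSO and 0 wholly below, where 4.9% and 4.64% of all tested genes did.

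With SR9009 and LPS against LPS, 3 of the 46 were higher and 2 lower, where 1.06% and 0.737% of all tested genes were, with a median log2 of 0.34. Abcc1, which exports glutathione conjugates, had 952, 824, 1091 and 1106 CPM with SR9009 and LPS, against 338, 282, 368 and 348 CPM with LPS (log2 1.57, SE 0.23, edgeR adjusted p = 0.00271). Esd (log2 0.92, edgeR adjusted p = 0.0232) and Prdx6 (log2 0.81, edgeR adjusted p = 0.0363) were higher again. Glrx, the glutathione-dependent glutaredoxin 1, had 222, 193, 198 and 197 CPM with SR9009 and LPS, against 383, 445, 368 and 379 CPM with LPS, and fell by 0.96 (log2, edgeR adjusted p = 0.00437). Hpgds, the prostaglandin D synthase of the sigma transferase class, fell by 1.23 (log2, edgeR adjusted p = 0.0148). In none of these 5 genes did the groups overlap, but they were named because they passed in this same comparison. Of the 46, 9 lay wholly above LPS and 4 wholly below, where 6.66% and 7.78% of all tested genes did. The gene encoding NRF2 itself, Nfe2l2, did not pass in either SR9009 comparison, with log2 values of -0.13 with LPS and 0.34 without (edgeR adjusted p = 0.916 and 0.694), and was picked from the regulator list after its values were seen. NRF2 protein and its activity were not measured. In the interaction, 0 of the 46 passed by edgeR.

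With LPS against DMSO, 11 of the 46 were higher and 7 lower, with a median log2 of -0.11. These shares are near the 19.4% and 20.4% of all tested genes, so the counts set these genes apart from no others. The 6 with the smallest p were Glrx (log2 2.59), the NADPH-producing isocitrate dehydrogenase gene Idh1 (log2 -2.39), the glyoxalase genes Hagh (3.99-fold lower) and Glo1 (log2 -1.25), Esd (log2 1.41) and the aminopeptidase gene Lap3 (log2 1.24). With SR9009 and LPS against SR9009, 8 were higher and 6 lower, with a median log2 of 0.01, where 14.5% and 15.8% of all tested genes were, so again the counts are near the background. The 6 with the smallest p were Glrx (log2 1.71), Idh1 (log2 -1.79), Hpgds (log2 -1.64), Abcc1 (log2 1.38), Hagh (log2 -1.20) and Esd (log2 1.02).

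**Figure D5:**
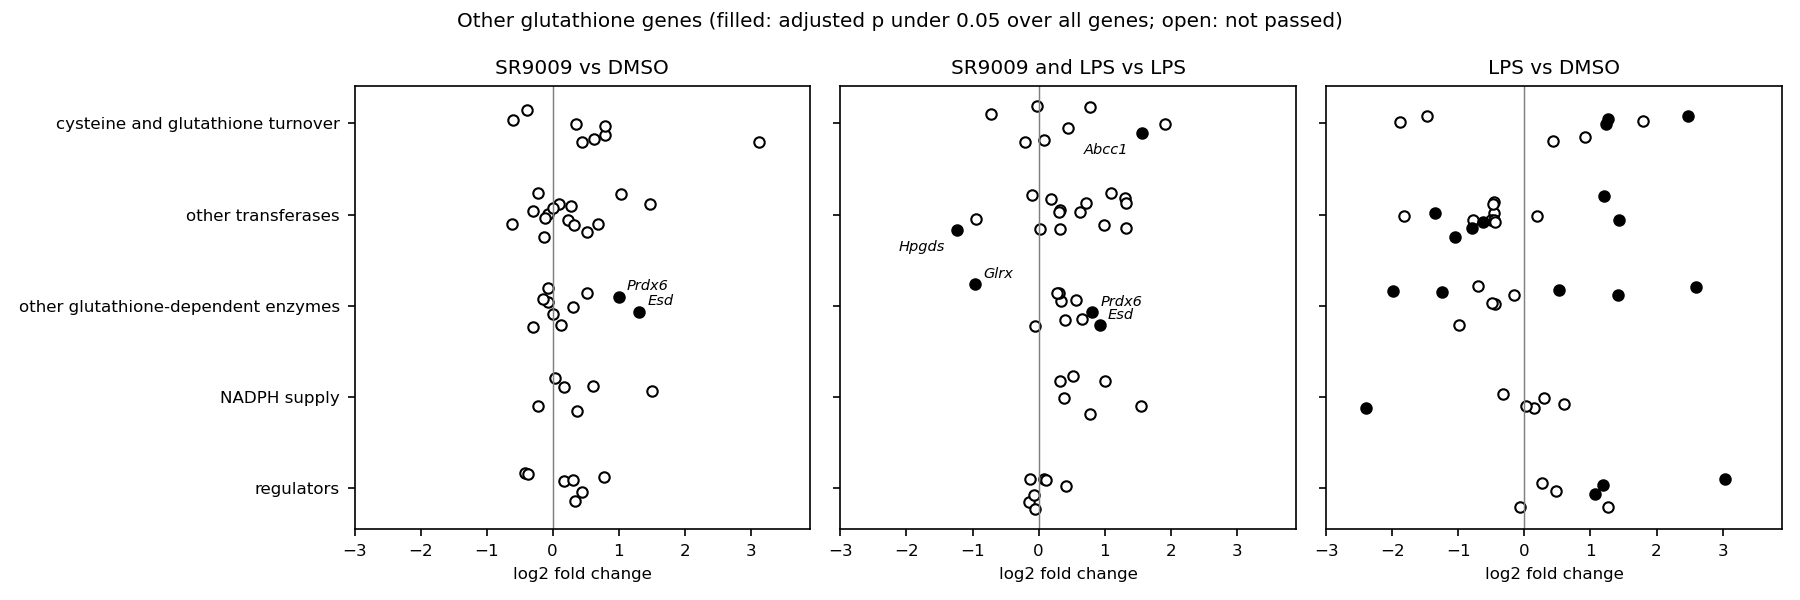
Log2 fold change of the 46 other tested glutathione genes, grouped by role (vertical spread within a role is only for legibility), for SR9009 against DMSO, SR9009 and LPS against LPS, and LPS against DMSO; filled points passed at an edgeR adjusted p under 0.05. Named points run from -1.23 (Hpgds) to 1.57 (Abcc1) for SR9009 and LPS against LPS, and Esd and Prdx6 are the 2 filled points for SR9009 against DMSO.

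Likeness of pattern was measured as the root mean square difference of log2 CPM, centred on each gene's mean, over the 16 libraries and 11327 other protein-coding genes. Closest to Gsta3 were Slc22a4, an ergothioneine transporter (0.69), Ednrb, an endothelin receptor (0.72), and Aox1, an aldehyde oxidase (0.72). Closest to Gclm were Prkar2b, a regulatory subunit of protein kinase A (0.51), Ednrb (0.52) and the catalase gene Cat (0.54). Closest to Slc7a11 were Il36g, an interleukin (1.07), Lancl3 (1.18) and Procr, the protein C receptor (1.22). Il36g and Lancl3 averaged only 0.0372 and 0.121 CPM with DMSO, and 0.384 and 0.343 CPM with SR9009. Aox1 averaged 0.194 CPM with LPS. At such levels the log2 values depend on the prior count of 2 added to each library, so these likenesses are less certain. Slc7a11 itself varied more, with an SD of log2 CPM over the libraries of 2.66, against 1.77 for Gsta3 and 1.56 for Gclm, and this difference grows with the spread, so these values are not compared between the 3 genes. Among the 10 genes themselves the smallest differences were between Gss and Gstm1 (0.52) and between Gstm1 and Gstp1 (0.54), and Gclm and Gsta3 differed by 0.59. Because the difference grows with the spread, a smaller value does not show that a pair is closer in pattern. The libraries share mice and depth, so these values describe the pattern only.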

How the data were processed

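Poly(A) RNA was sequenced in 16 libraries, per the labels' protocols. Per the submitters' processing notes, HISAT2 and the GRCm39 (mm39) build were used; their versions, the counter, the annotation and the strandedness are not given in the sources here. The authors deposited raw counts per gene, and FPKM values scaled by the authors to gene length and library size. Mean ± SD and per-library CPM were computed from the counts with TMM-scaled library sizes.

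Counts were analysed in R 4.3.3 with edgeR 4.0.16 (filterByExpr, minimum count 10 and minimum total 15; TMM factors 0.738 to 1.26; robust quasi-likelihood test; 1 mean per group over all 16 libraries; common biological coefficient of variation 0.377). P-values were Benjamini-Hochberg adjusted over 13438 genes, threshold 0.05. Each SE is the log2 fold change over the square root of its F statistic. Alternatives used DESeq2 1.42.0, limma 3.58.1, limma on log2 FPKM plus 1 or 0.1, other scalings and filters, and left-out mice. Python 3.11.15 drew figures. The fits were also run on simulated counts, with changes set only in the SR9009 libraries and with no mouse effect or outlying library. That run cannot show how the fits behave where libraries share a mouse or a library stands apart. The 4 mice are the pairing: the labels give each mouse's number. Deviations from the group mean correlated at r = 0.0809 to 0.560 between libraries of 1 mouse (24 pairs, median 0.249), across genes, which are not independent. For 72 pairs of different mice the median was -0.0899. Subtracting the mean of the 4 mice ties their deviations together, so positive values within a mouse push those between mice below 0. The median between mice is thus not a separate reference. Library pairs with identical counts numbered 0.

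All 10 genes were named, and of the other glutathione genes up to 6 called genes with the smallest p per comparison. Nfe2l2 was named outside this rule. For Gsta3, Gclm and Slc7a11, 3 alike genes each were named. The 10 genes and the lists were chosen with earlier results of these data known.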

Additional observations from a re-analysis of the deposited data

Results flagged for a closer look

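Of 40 sets of 4 libraries (10 genes in 4 groups), 2 held a library set apart from the other 3 by Dixon's criterion, and chance flags about 1 in 20. Gclm had 933 CPM in the SR9009 library of mouse 1, where the other 3 ran from 331 to 412 CPM; this is also the shallowest library. Gstm1 had 89.9 CPM in the LPS library of mouse 2, where the other 3 ran from 70.3 to 72.6 CPM.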

How the results depend on the processing

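Over the alternatives, 676 of 790 recomputed values of the 10 genes kept direction and side of the threshold, 42 fell out of the calls, 38 came in and 34 changed sign, all of them in results not called in the fit reported. Gsta3 was higher with SR9009 in all 16 alternatives of both SR9009 comparisons. The cause of the changes was not tested.

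For SR9009 against DMSO, the 3 genes called higher became 5 with DESeq2, 1 in a fit of the compared groups alone, 5 without the SR9009 library of mouse 1, 6 without it and with the replicate block, and 1 to 5 when a mouse was left out. For SR9009 and LPS against LPS, 5 became 3 with limma-voom, 8 with the replicate block and without that library, and 1 to 7 when a mouse was left out. For LPS against DMSO, 3 lower genes became 5 in the fit of the compared groups alone and 1 to 4 when a mouse was left out. For SR9009 and LPS against SR9009, 0 lower genes became 1 (Gsta3) with upper-quartile scaling, limma-voom, limma on log2 FPKM plus 1, and the replicate block without that library. With the replicate block alone, 4 and 7 genes were higher in the 2 SR9009 comparisons, through Mgst1 in both and Gstm1 in the second, and it changed no other call of the 10 genes. Calls over all genes at these settings, in either direction, follow for comparison.

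Over all genes, SR9009 against DMSO called 118 genes, but 328 with DESeq2, 198 with the block, 4 in the groups alone, 242 without the SR9009 library of mouse 1 (586 with the block) and 194, 9, 18 and 1 without mouse 1, 2, 3 or 4. SR9009 and LPS against LPS called 241 and, with limma-voom, 228. It called 149 with no filter, 706 with DESeq2, 535 with the block, 486 in the groups alone and 1566 without that library (2900 with the block). Without mouse 1, 2, 3 or 4 it called 963, 26, 9 and 5. LPS against DMSO called 5352, but 7850 in the groups alone and 8847 with the block and without that library. Without mouse 1, 2, 3 or 4 it called 7248, 3595, 3548 and 3506. SR9009 and LPS against SR9009 called 4070, but 2113 in the groups alone, 6845 with the block and without that library, and 2430, 2526 and 2530 without mouse 2, 3 or 4. With upper-quartile scaling, limma-voom and limma on log2 FPKM plus 1 it called 4485, 3948 and 3904. The interaction called 1, and from 0 (limma-voom; without mouse 2, 3 or 4) to 98 with DESeq2, 49 and 10 on log2 FPKM plus 1 or 0.1, 15 with the block, 18 without mouse 1, and 41 (271 with the block) without that library.

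Log2 values that changed sign were all uncalled. In SR9009 and LPS against LPS these were Gsr (-0.014 to 0.38 with libraries left out) and Gpx1 (0.052 upper-quartile and 0.029 no filter and -0.23 to 0.19 with libraries left out). In LPS against DMSO these were Gstm1 (-0.11 upper-quartile). In SR9009 and LPS against SR9009 these were Gclc (-0.44 to 0.074 with libraries left out), Gclm (0.18 block without the SR9009 library of mouse 1 and -0.60 to 0.32 with libraries left out), Gpx1 (0.034 RLE, 0.031 DESeq2, 0.042 FPKM plus 1 and 0.051 FPKM plus 0.1 and -0.47 to 0.20 with libraries left out), Gstm1 (-0.064 upper-quartile and -0.11 block without the SR9009 library of mouse 1 and -0.085 to 0.24 with libraries left out), Gstp1 (-0.18 block without the SR9009 library of mouse 1 and -0.15 to 0.35 with libraries left out) and Mgst1 (-0.30 to 0.027 with libraries left out). In the interaction these were Gsta3 (-0.23 FPKM plus 1) and Gstm1 (0.045 upper-quartile, 0.063 no filter, 0.048 voom, 0.054 FPKM plus 1, 0.054 FPKM plus 0.1 and 0.0071 block and -0.24 to 0.16 with libraries left out). Upper-quartile scaling moved the median of all genes to -0.28 from -0.08 in LPS against DMSO and to -0.25 from -0.12 in SR9009 and LPS against SR9009. Of the 10 genes, Gsta3 with LPS rested on the fewest counts, 23 to 31 per library.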
